A study of Mus musculus with 10 samples.

Results

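Alpha-A crystallin and 5 other genes of lens fibre cells were followed in mouse neuroretinas, 14 days after the vitreous had been injected. The 6 genes, Cryaa, Mip, Bfsp1, Bfsp2, Lim2 and Lgsn, were taken by symbol from 57186 rows of Ensembl mouse gene counts, as markers of the lens fibre cytoskeleton and membrane beside Cryaa, and each matched 1 row. Transcripts of all 6 were counted in these retinal libraries. Their levels differed widely between libraries of the same treatment group, and they rose and fell together from library to library. Fitted log2 fold changes between the groups were -1.17 for Cryaa, -1.87 for Mip, -1.44 for Bfsp2 and -1.95 for Lgsn. The SD of log2 levels within groups was 1.84, 1.79, 1.56 and 1.83 in the same order. None of these differences was called. Their 95% intervals ran from a large fall to a rise, which was slight for Mip (upper limit 0.06) and Lgsn (0.09).

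The study compared neuroretinas of female C57BL6/JRj mice injected with 1 µL of graphitic carbon nitride nanoparticles (hg-C3N4, the CNP group) at 1 mg/mL in phosphate-buffered saline with neuroretinas injected with saline alone (PBS), so both groups share the injection. Each group had 5 libraries, which keep their label numbers here (PBS 2, 6, 10, 14 and 18; CNP 4, 8, 12, 16 and 20). Polyadenylated RNA of the frozen, isolated neuroretina was sequenced. The series' design lists 5 CNP mice and 5 PBS eyes; nothing else says whether libraries came from separate animals, and p-values measure only the spread between these libraries. The mice's age was not given in the sources used here.

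Total counts ranged from 3328518 to 5428697 per library. Rod photoreceptor markers were abundant in every library, with a summed mean of 80116 ± 25654 CPM (counts relative to the library total, scaled by TMM) for PBS and 77673 ± 11367 for CNP (SD, n = 5 each). Of the other cell types checked, pigment epithelium markers summed to between 482 and 2516 CPM, and the 4 skeletal muscle markers stood at 154 CPM in CNP 12 against at most 48.6 CPM in PBS. The ciliary epithelium and cornea lists stayed at or below 4.83 and 9.63 CPM in every library.

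The lens is the transparent body in front of the vitreous, and its bulk is made of fibre cells, which elongate, lose their nuclei and organelles and fill with crystallins. Cryaa encodes alpha-A crystallin, a small heat shock protein that keeps other lens proteins soluble and is also known from retinal neurons and glia. Mip encodes aquaporin-0, the water channel and junction protein of the fibre membrane. Bfsp1 (filensin) and Bfsp2 (phakinin) are the intermediate filament proteins of the beaded filament, a cytoskeletal structure of fibre cells. Lim2 is a fibre membrane protein of the PMP22 family, and Lgsn encodes lengsin, a lens relative of glutamine synthetase. Because Cryaa is known from retina as well as lens, the other 5 genes are read beside it as lens fibre markers. Whether retinal cells contribute to their counts was not tested. In bulk tissue, fewer cells of a type and less RNA per cell cannot be told apart.

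The promoters of the members were searched for short motifs, among them those of lens regulators. Whether any motif bears on the joint movement of the members was not tested. The windows are the 250 bases before the RefSeq gene start (GRCm38.p6), and all 6 members had one. TGCTGA, one arm of the recognition element of Maf factors, which drive crystallin genes, was found on either strand in 5 of the 6 windows, against 16.1% of 32851 promoter windows in the table. The Cryaa window (chr17:31677681-31677930, plus strand) is shown whole, since it alone also held the outer letters TGC and GCA of the full Maf element at their proper distance, as 6.17% of all windows did. That match overlaps its TGCTGA and is in capitals.
Cryaa: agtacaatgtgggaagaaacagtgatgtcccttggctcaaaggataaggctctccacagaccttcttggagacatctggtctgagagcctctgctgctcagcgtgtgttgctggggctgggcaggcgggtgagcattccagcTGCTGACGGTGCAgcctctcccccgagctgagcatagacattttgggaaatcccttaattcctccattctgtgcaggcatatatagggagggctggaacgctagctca
For the other 4 genes the match is shown with 20 bases on each side, in the direction of the gene, with the match in capitals. In Bfsp1 and Lim2 it lies on the opposite strand and reads TCAGCA.
Mip (chr10:128225658-128225703, plus strand): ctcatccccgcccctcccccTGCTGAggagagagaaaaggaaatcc
Bfsp1 (chr2:143863335-143863380, minus strand): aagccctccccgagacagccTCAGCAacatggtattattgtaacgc
Lim2 (chr7:43429940-43429985, plus strand): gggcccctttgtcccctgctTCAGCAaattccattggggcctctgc
Lgsn (chr1:31176380-31176425, plus strand): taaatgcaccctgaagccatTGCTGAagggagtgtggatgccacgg
The matches begin 108 bases before the start in Cryaa, 132 in Mip, 187 in Bfsp1, 139 in Lim2 and 35 in Lgsn. The Bfsp2 window held none of the letters searched. The heat shock core GAANNTTC (6.69% of windows) and the Sox motif AACAAT (9.42%) were in 0 member windows, and TATAAA (12.4%) only in that of Lgsn. A match describes letters, not a bound site.

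Cryaa (ENSMUSG00000024041) was counted in every library. In PBS its level was 82.8 CPM in PBS 2, 889 in PBS 6, 3087 in PBS 10, 1830.5 in PBS 14 and 361 in PBS 18. In CNP it was 125 CPM in CNP 4, 1739 in CNP 8, 346 in CNP 12, 116 in CNP 16 and 449 in CNP 20. PBS 10 was thus 37.3-fold above PBS 2, a library of the same group, and both the lowest and the highest library received saline. The 3 lowest libraries (PBS 2, CNP 16, CNP 4), the 3 middle ones (CNP 12, PBS 18, CNP 20) and the 4 highest (PBS 6, CNP 8, PBS 14, PBS 10) each mixed both groups. Counting error was small beside these steps: the 95% Poisson interval was 75.6 to 90.4 CPM in PBS 2 and 3036 to 3138 CPM in PBS 10. Only the neighbours CNP 16 and CNP 4 (105.9 to 127 and 116 to 135 CPM), and CNP 12 and PBS 18 (326 to 366 and 340.2 to 383 CPM), could not be ordered by their intervals. These intervals cover counting error only and take each count as a separate molecule. Whether repeated reads of a molecule were collapsed was not given in the sources used here.

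Mip (ENSMUSG00000025389) ran close to the order of Cryaa with far fewer counts, 921 in all. It measured 1.52 CPM in PBS 2, 11.8 in PBS 6, 112.6 in PBS 10, 31.7 in PBS 14 and 7.48 in PBS 18, and 3.11 in CNP 4, 20.3 in CNP 8, 6.62 in CNP 12, 2.14 in CNP 16 and 12.7 in CNP 20. The groups overlapped: PBS 6 and PBS 18 lay within the range of CNP, PBS 2 below it and PBS 10 and PBS 14 above it.

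The beaded filament genes behaved alike. Bfsp2 (ENSMUSG00000032556) had 3.37 CPM in PBS 2, 13 in PBS 6, 112.6 in PBS 10, 29.0 in PBS 14 and 8.13 in PBS 18, beside 4.57 in CNP 4, 33.0 in CNP 8, 9.33 in CNP 12, 3.57 in CNP 16 and 9.94 in CNP 20. Its partner Bfsp1 (ENSMUSG00000027420), with 199 counts in all, had 1.01, 2.77, 17.2, 6.64 and 1.30 CPM in PBS 2, 6, 10, 14 and 18 and 1.28, 9.45, 1.81, 0.714 and 2.24 CPM in CNP 4, 8, 12, 16 and 20. In both genes PBS 10 was highest, with CNP 8 above PBS 14 after it. Bfsp1 did not pass the filter on low counts, which asks for about 10 counts in 5 libraries, and so was left out of the filtered edgeR analysis.

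Lgsn (ENSMUSG00000050217) reached its lowest level where Cryaa did. It had 0.337 CPM in PBS 2 (2 counts, 95% interval 0.0408 to 1.22), 8.66 in PBS 6, 59.6 in PBS 10, 9.97 in PBS 14 and 4.55 in PBS 18. The CNP libraries had 1.46 in CNP 4, 11.9 in CNP 8, 3.91 in CNP 12, 0.714 in CNP 16 and 3.23 in CNP 20, all within the range of PBS.

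Lim2 (ENSMUSG00000093639) was all but uncounted, with 8 counts over all libraries: 3 in PBS 10, 3 in PBS 14, 1 in PBS 18 and 1 in CNP 8. The other 6 libraries had 0, which allows up to 0.506 CPM in PBS 2, the deepest, and 0.903 CPM in CNP 12. Of the 4 libraries with a count, 3 are the highest in Cryaa. Which reads were assigned to Lim2, as for every gene, rests on counting settings, which were not given in the sources used here.

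These swings were among the widest of all genes measured. The within-group SD of log2 CPM was 1.84 for Cryaa, 1.83 for Lgsn, 1.79 for Mip and 1.56 for Bfsp2, against a median of 0.271 over the 11499 genes tested. Ranked by this SD they were the 5th, the 6th, the 9th and the 15th gene. The 15 most variable genes were these 4 members, 10 beta and gamma crystallins and Grifin, a galectin-related lens protein. As a share of the library, the 6 members together took from 0.00973% of counts in PBS 2 (95% exact binomial interval 0.00891 to 0.0106) to 0.359% in PBS 10 (0.353 to 0.365). With the beta and gamma crystallins the share reached 1.4% in PBS 10 and was at most 0.549% in any other library, so the total of the other genes changed little.

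The comparison of the design asks whether the nanoparticles shifted these transcripts. By edgeR's quasi-likelihood test, 0 of 11499 genes were called at an adjusted p under 0.05 (0%), and 137 (1.19%) had an unadjusted p under 0.05. DESeq2 and limma-voom also called 0, with 86 and 142 at an unadjusted p under 0.05. None of the 4 members tested passed. All 4 had lower fitted levels in CNP, as did 51.2% of all genes, with a median log2 fold change of -1.65 beside -0.00358 over all genes. A log2 fold change below -1 was found for 15 genes (0.13%), which were again the 4 members, 10 beta and gamma crystallins and Grifin. These are also the 15 genes with the widest spread within groups, and they share their libraries, so they do not count as separate observations.

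The mean level of Cryaa was 1250 ± 1224 CPM for PBS against 555 ± 677 CPM for CNP (SD, n = 5 each). EdgeR fitted a log2 fold change of -1.17 (SE 0.87, 95% interval -3.06 to 0.71, edgeR adjusted p = 0.9997), so the data leave room for a large fall or a smaller rise. Mip averaged 33.0 ± 45.9 and 8.97 ± 7.56 CPM, a log2 fold change of -1.87 (95% interval -3.79 to 0.06). Bfsp2 averaged 33.2 ± 45.4 and 12.1 ± 12 CPM, a log2 fold change of -1.44 (-3.24 to 0.36). Lgsn averaged 16.6 ± 24.3 and 4.24 ± 4.45 CPM, a log2 fold change of -1.95 (-3.98 to 0.09). The edgeR adjusted p was 0.9997 for each. In all 4 genes the SD within PBS was close to or above the mean, and the group ranges overlapped. None of the 6 members separated the groups, which 0.165% of tested genes did with every CNP library lowest and 0.287% did in either direction.

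The size of these differences rested on single libraries. Without PBS 10, the log2 fold change shrank to -0.51 for Cryaa, -0.48 for Mip, -0.08 for Bfsp2 and -0.40 for Lgsn, and the Cryaa mean of PBS fell from 1250 to 791 CPM. Without CNP 8, the highest CNP library, it grew to -2.26, -2.46, -2.31 and -2.90 in the same order, with edgeR adjusted p = 0.9998 for each. Means of log2 CPM, which give less weight to PBS 10, differed by -1.05 for Cryaa, -1.06 for Mip, -0.88 for Bfsp2 and -1.13 for Lgsn, and by -0.62 for Bfsp1, which edgeR did not test. Exact permutation tests over all assignments of 5 and 5 libraries gave two-sided p = 0.373 for Cryaa, 0.405 for Mip, 0.476 for Bfsp1, 0.429 for Bfsp2, 0.167 for Lim2 and 0.373 for Lgsn. Among the libraries numbered up to 10 the Cryaa difference in mean log2 CPM was -0.39, and among those numbered above 10 it was -1.63. The labels do not say what the numbers stand for.

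**Figure D1:**
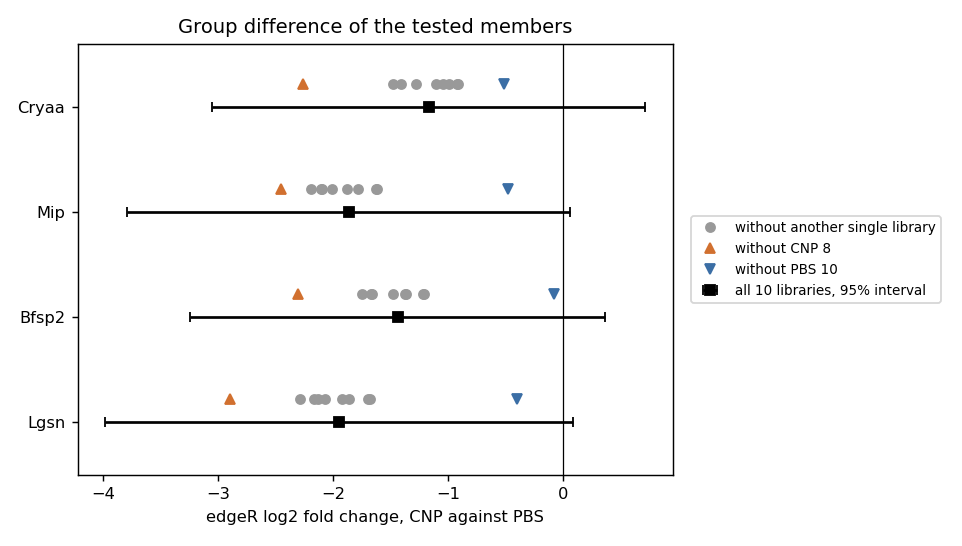
Black squares with bars give edgeR's log2 fold change of CNP against PBS with its 95% interval for the 4 tested members, and the symbols above each bar give the value with 1 library left out. All 4 intervals include 0, and leaving out PBS 10 (blue) or CNP 8 (orange) moves the value farthest in opposite directions.

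Co-variation was close in every member with enough counts. Over the 10 libraries, log2 CPM of Mip followed Cryaa with Pearson r = 0.963 (permutation p = 1e-05, the smallest that 100000 permutations can give; 2.5e-05 adjusted over 5 relations) and Spearman rho = 0.988 (permutation p = 1e-05). For Bfsp2 r was 0.958 and rho 0.976, for Lgsn 0.957 and 0.952, and for Bfsp1 0.937 and 0.964, with adjusted permutation p for r of 2.5e-05, 3.3e-05 and 5e-05. Lim2 gave r = 0.728 (adjusted permutation p = 0.0169) and rho = 0.737 on its 8 counts. Without PBS 10 and PBS 2, the libraries farthest from the median of Cryaa, r was 0.968 for Mip, 0.983 for Bfsp2, 0.963 for Lgsn, 0.935 for Bfsp1 and 0.618 for Lim2. The members were chosen with earlier results of these data known, so these permutation p-values are descriptive and give no independent support.

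The relation did not rest on the difference between the groups or on the gap between the 3 lowest libraries and the rest. Taken as deviations from the group means, r was 0.959 for Mip, 0.954 for Bfsp2, 0.953 for Lgsn and 0.933 for Bfsp1. Over the 7 libraries highest in Cryaa it was 0.911, 0.942, 0.895 and 0.967 in the same order. Among the 5 members other than Lim2, r was highest for Bfsp1 and Bfsp2 (0.9799), scarcely above Mip and Bfsp2 (0.9791). The loosest pair was Bfsp1 and Lgsn at 0.918.

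**Figure D2:**
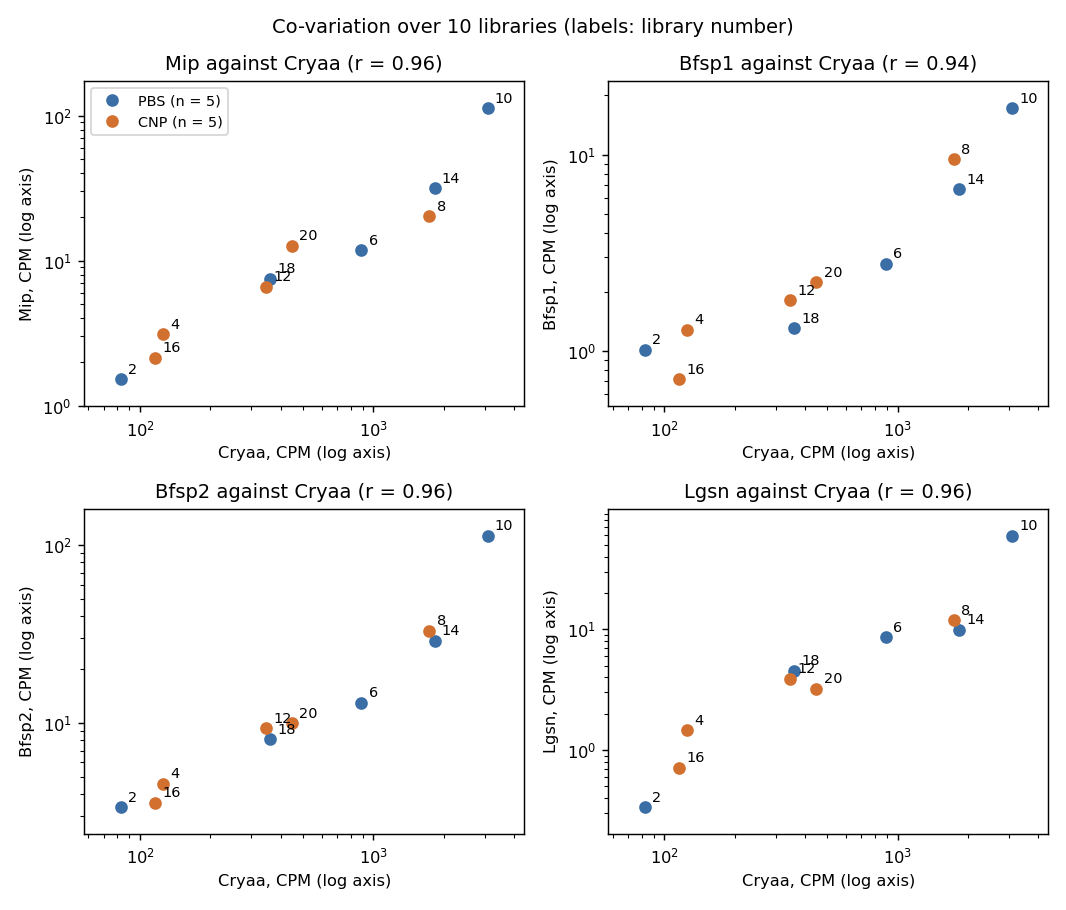
Each panel plots a member's CPM against that of Cryaa in the 10 libraries (both axes log; blue PBS, orange CNP; numbers are library numbers), with r computed on log2 CPM with a prior count of 2. Libraries of both groups lie along 1 line in each panel, from PBS 2 at the lower left to PBS 10 at the upper right.

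The members did not keep a fixed proportion, however. Per 1000 Cryaa counts, Mip had 36.5 counts in PBS 10 (95% exact interval 33.4 to 39.8), 17.3 in PBS 14 (14.1 to 21.0) and 11.7 in CNP 8 (9.49 to 14.2). Lgsn had 19.3 in PBS 10 (17.1 to 21.8), 5.44 in PBS 14 (3.74 to 7.65) and 6.82 in CNP 8 (5.18 to 8.80). PBS 10 was therefore richer in both relative to Cryaa than the libraries next to it in Cryaa level. The gap was more than counting error, if each count is a separate molecule.

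Bfsp2 per 1000 Cryaa counts ran from 14.6 in PBS 6 (11.5 to 18.3) to 40.7 in PBS 2 (24.7 to 63.6), with 36.5 in PBS 10 (33.4 to 39.8). Bfsp1 ran from 3.12 in PBS 6 to 12.2 in PBS 2 (4.46 to 26.8, on 6 counts). For both filament genes PBS 2, the library lowest in Cryaa, had the highest ratio. PBS 10 differed in the amount of each gene over PBS 14 as well: 1.69-fold for Cryaa (95% counting interval 1.64 to 1.74), 2.59-fold for Bfsp1 (1.6 to 4.37), 3.55-fold for Mip (2.87 to 4.42), 3.88-fold for Bfsp2 (3.12 to 4.88) and 5.98-fold for Lgsn (4.16 to 8.86). These compare 2 libraries of 1 group.

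With all 10 libraries, the proportions of the 4 better counted genes were close between the treatment groups. Mip per 1000 Cryaa counts averaged 21.2 ± 8.95 in PBS and 20.5 ± 6.38 in CNP, Bfsp2 26.0 ± 12 and 27.1 ± 6.94, Bfsp1 5.63 ± 3.80 and 6.40 ± 2.18, and Lgsn 10.2 ± 6.10 and 8.64 ± 2.64 (SD, n = 5 each). Exact permutation p was 0.881, 0.857, 0.659 and 0.651 in this order, and 0.881 for each after adjustment over the 5 members. Lim2, on 8 counts, had 0.322 ± 0.382 in PBS and 0.0231 ± 0.0517 in CNP (exact permutation p = 0.167, adjusted 0.833). Without PBS 10 the PBS means were 17.4 for Mip, 23.4 for Bfsp2, 5.64 for Bfsp1 and 7.97 for Lgsn. The PBS mean of Lgsn was then below that of CNP, so the closeness rested in part on PBS 10. A p of the size given above does not show that the proportions are equal.

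**Figure D3:**
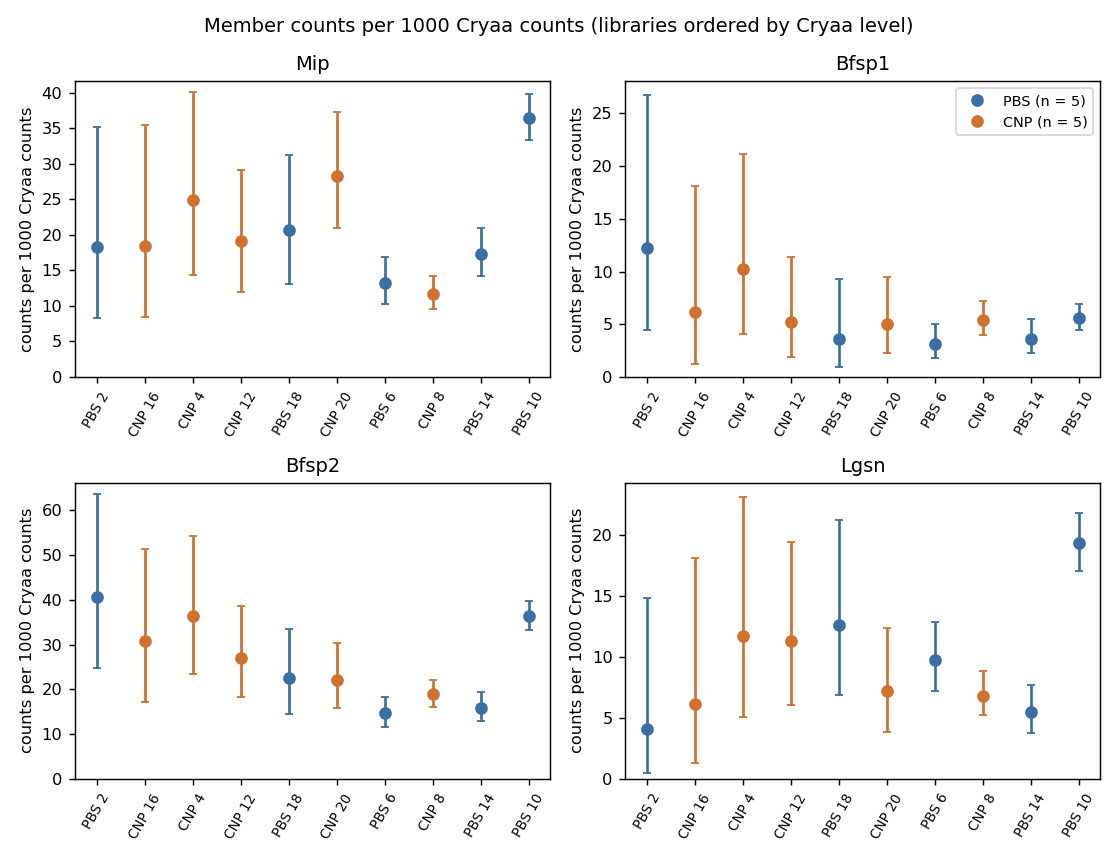
Counts of Mip, Bfsp1, Bfsp2 and Lgsn per 1000 Cryaa counts are plotted for each library, ordered from lowest to highest Cryaa level, with 95% exact binomial intervals (blue PBS, orange CNP). PBS 10, at the right, stands above PBS 14 and CNP 8 in Mip, Bfsp2 and Lgsn.

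Among all 11498 other tested genes, those most like Cryaa over the 10 libraries, by Pearson r of log2 CPM, were Crygs (0.995), Crybb2 (0.994), Cryba1 (0.994), Cryba2 (0.994), Cryba4 (0.993), Crybb1 (0.989), Crybb3 (0.985) and Grifin (0.979). These are structural proteins of the lens except Grifin, named above. The median r over all genes was -0.00919. An r of 0.9 or more was reached by 16 genes, of which 14 were crystallins or members and the others were Grifin and the splicing helicase Dhx38 (0.906), whose level ran only from 25.1 to 35.1 CPM. After these, outside the crystallins and members, came a gene model without a symbol (ENSMUSG00000121114, 0.895), the glutathione synthetase gene Gss (0.863), Sik1 (0.852), Dst (0.851), Hipk3 (0.843) and Nras (0.839). Sik1, a salt-inducible kinase and the next protein-coding gene after Cryaa in the RefSeq table for GRCm38.p6, ran from 2.19 CPM in CNP 4 to 14.5 in CNP 8, with 8.29 in PBS 10. All of these were chosen for their likeness, so no test is given.

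The beta and gamma crystallins moved with Cryaa as a group: their sum had r = 0.989 with Cryaa. The list was chosen with earlier results known and holds genes just named for their likeness, so no test is given here. All 14 were detected and 10 tested; 0 were called and all 10 had negative fold changes, with a median of -1.40. The mean of Crybb2 was 1072 ± 1126 CPM for PBS and 432 ± 450.3 for CNP, and that of Crygb 811 ± 1149 and 266 ± 217 (SD, n = 5 each). Their log2 fold changes were -1.31 and -1.61, and that of Crygc was -1.51. Here too single libraries set the size: without PBS 10 the PBS means were 630 CPM for Crybb2 and 302 CPM for Crygb, and the fold changes of Crybb2, Crygb and Crygc were -0.54, -0.18 and -0.03. The median of the list was then -0.26, and without CNP 8 it was -2.47.

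Other lens fibre genes fell into 2 kinds. Of 10, 4 could be tested and 0 were called, 1 with a positive and 3 with a negative fold change (median -0.30). Grifin, at 0.843 to 47.8 CPM, followed Cryaa, with -1.26 as its fitted log2 fold change (95% interval -3.23 to 0.71; -0.13 without PBS 10 and -2.45 without CNP 8). Tdrd7, an RNA granule protein (0.04, r = 0.389 with Cryaa), the actin-capping Tmod1 (-0.39, r = 0.325) and Caprin2 (-0.21, r = -0.36), which other tissues also express, did not track it as closely. The fibre connexin Gja3 was sparse, with 65 counts in PBS and 26 in CNP.

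Regulators of lens genes did not run parallel to Cryaa. Of 11 regulator and lens epithelium genes 6 were tested and 0 called, 2 with a positive and 4 with a negative fold change. The eye-field factor Pax6 (136 ± 49.6 CPM for PBS, 125 ± 26.6 for CNP, r = -0.234) and Six3 (29.9 ± 9.14 and 30.4 ± 7.22, r = -0.364) are made by retinal cells too. Among other genes of this list, Foxe3 was never counted, so its level over the pooled libraries was at most 0.0677 CPM. Pitx3 had 4 counts and Cdh1 had 13.

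Relatives of the members differed in how far they followed Cryaa. Cryab, the alpha-B crystallin made by lens and by retinal glia, never fell below 320 CPM and reached 1519 CPM in PBS 10 (r = 0.965). Per 1000 Cryaa counts it ranged from 492 in PBS 10 to 3862 in PBS 2. The next most abundant small heat shock gene, Hspb6, stayed between 232 and 337 CPM (r = 0.335). The family's sum spanned 3.21-fold over the libraries (r = 0.96). Of its 7 genes 4 were tested and 0 called, 2 with a positive and 2 with a negative fold change, Cryab at -0.58 (95% interval -1.48 to 0.32; -0.25 without PBS 10 and -0.96 without CNP 8).

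Aquaporins other than Mip summed to 198 to 232 CPM, led by Aqp1 and the Müller glia channel Aqp4, with r = -0.347 to Cryaa (4 of 10 tested, 0 called). Intermediate filament genes other than Bfsp1 and Bfsp2, led by Nefl and Gfap, summed to 813 to 1170.2 CPM (7 of 8 tested, 0 called; r = -0.595). The PMP22 relatives of Lim2, led by Pmp22 and Emp2, summed to 35.3 to 59.0 CPM (3 of 4 tested, 0 called; r = -0.456), and glutamine synthetase (Glul) ran from 811 to 1239 CPM (r = -0.258). None of these last 4 sets, the small heat shock genes aside, spanned more than 1.67-fold over the libraries, beside 38.1-fold for the sum of the 6 lens fibre genes.

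Markers of other cells did not follow Cryaa closely. The lists held Rom1 (rods), Pcp2 (bipolar cells), Glul and Apoe (Müller glia), Ttr and Rgr (pigment epithelium), and Mylpf and Acta1 (skeletal muscle). Over the 10 libraries, r with Cryaa was -0.0043 for rod genes, -0.449 for bipolar cell genes, -0.565 for Müller glia genes, 0.057 for pigment epithelium, 0.0696 for skeletal muscle, -0.64 for blood and -0.239 for the total count. The smallest of these permutation p-values was 0.052, for blood, and 0.208 after adjustment over 8 relations, which include the beta and gamma crystallin sum. Blood markers, led by Hbb-bs and Hba-a1, summed to 154 CPM in PBS 18 and 77.9 in PBS 6. The pigment epithelium sum averaged 1251 CPM (SD 824) for PBS and 1578 CPM (SD 594) for CNP, with 7 of 8 tested genes positive and 0 called; Ttr had 0.36 and Rgr 0.31. Its part, and that of the muscle markers in CNP 12, in the lens values was not tested.

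**Figure D4:**
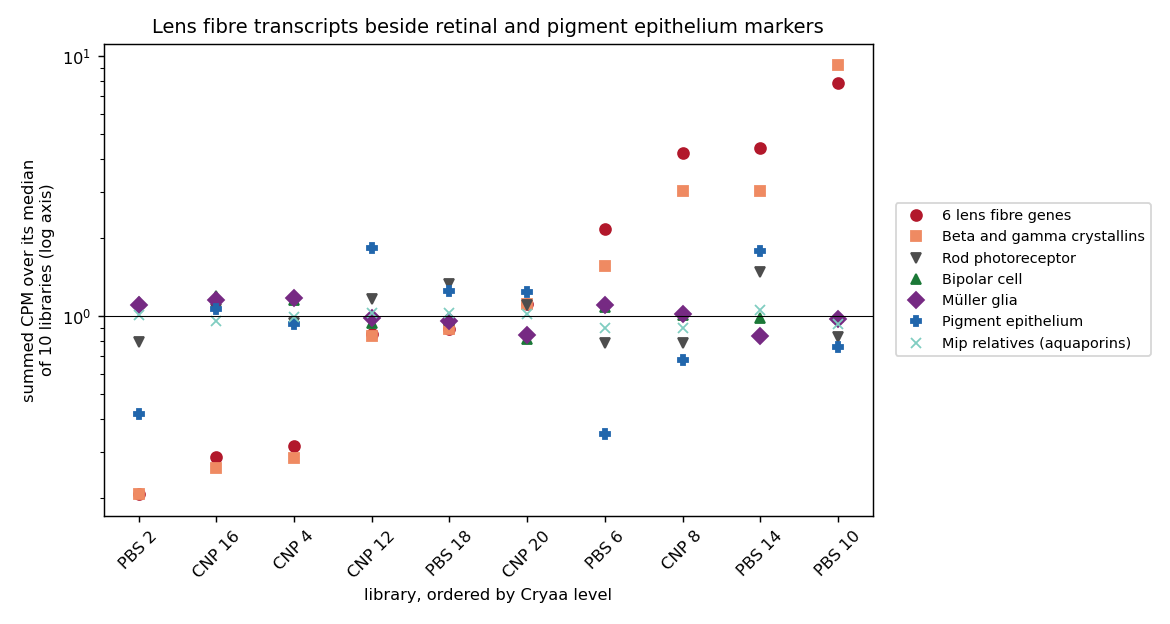
For each library, ordered by Cryaa level, the summed CPM of a gene list is plotted over that list's median of the 10 libraries (log axis). The lens fibre genes and the beta and gamma crystallins climb together from PBS 2 to PBS 10, while the rod, bipolar cell, Müller glia and aquaporin lists stay within 0.784 to 1.48 times their medians and pigment epithelium spans 0.351 to 1.83 times.

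Strand use in counting was not given in the sources used here, so reads of a gene and of an overlapping antisense gene cannot be told apart. In GENCODE M21 such genes overlap Cryaa, Mip, Bfsp2 and Lgsn on the other strand. The one at Cryaa had 3 counts over all libraries, those at Bfsp2 had 4 and 0, and the one at Lgsn had 0. The ID of the one at Mip was not among the counted genes, so it has no count here.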

How the data were processed

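Counts came from polyadenylated RNA of 10 neuroretina libraries, reverse transcribed with barcoded primers carrying molecular identifiers, per the labels' protocols. STAR and STARsolo with build GRCm39 are named, per the submitters' processing notes; versions, annotation, strand use and the collapsing of identifiers were not given in the sources used here. The authors deposited raw whole-number counts for 57186 Ensembl genes. Symbols were matched to 51880 IDs through a name table. The 20 pairs of libraries within groups differed beyond counting noise (chi-square per degree of freedom 4.398 to 36.47).

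Genes were filtered with filterByExpr (minimum count 10, minimum total 15; 11499 kept), scaled by TMM and tested with edgeR 4.0.16 (quasi-likelihood, two-sided, Benjamini-Hochberg, threshold 0.05) in R 4.3.3. Log2 CPM used a prior count of 2. Single values were compared by exact permutation over all assignments (smallest p 0.00794), correlations with 100000 permutations. Intervals are at 95%; a count of 0 allows 3 counts. Promoters are RefSeq's for GRCm38.p6; the counts' own coordinates are not used. DESeq2 1.42.0, limma 3.58.1 (voom), other scalings, filters and single-library omissions were alternatives. Scripts were tested on simulated counts.

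Members and gene lists were chosen with earlier results of these data known. Named genes were all members, tested genes of the other lens fibre list, the 3 most abundant beta and gamma crystallins, the 2 most abundant of each further list and the 8 most like Cryaa, with and without crystallins. Dropped or sparse genes (Gja3, Foxe3, Pitx3, Cdh1), and tests of proportions, PBS 10 over PBS 14 and marker sums, and single-library omissions for genes other than the members, were added after values were seen. Some genes under the naming rule are not reported here.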

Additional observations from a re-analysis of the deposited data

Results flagged for a closer look

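In 4 of 22 sets of 5 libraries checked, 1 library stood far from its group by Dixon's criterion. Chance gives about 1 in 20 for independent sets of normally distributed values. These sets share libraries and genes, and some hold tied zeros, so no excess over that rate can be read from them. Bfsp1 per 1000 Cryaa counts was 12.2 in PBS 2, beside 3.12 to 5.59 in the other PBS libraries, and 10.2 in CNP 4, beside 4.99 to 6.16 in the other CNP libraries. These ratios rest on 6 and 7 counts of Bfsp1, and both libraries are among the lowest in Cryaa. Lim2 stood apart in CNP 8 at a log2 CPM of -0.62, and also at 0.116 per 1000 Cryaa counts. The other CNP libraries had 0 counts, so both flags rest on the same 1 count.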

How the results depend on the processing

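No paired analysis was possible because the groups share no replicate numbers. The number of genes called was 0 under each alternative scaling, filter, tool and omission run, and every log2 fold change of Cryaa, Mip, Bfsp2 and Lgsn stayed negative and uncalled (lowest adjusted p of a member 0.9275, without the low-count filter). Leaving out 1 library at a time gave -2.26 to -0.51 for Cryaa, -2.46 to -0.48 for Mip, -2.31 to -0.08 for Bfsp2, -2.90 to -0.40 for Lgsn and -2.38 to -0.44 for the median of the 4, with PBS 10 and CNP 8 at the ends. Limma-voom gave -0.95 for Mip, -0.82 for Bfsp2 and -0.98 for Lgsn, nearer to 0 than edgeR; the cause was not tested. Bfsp1 had -0.83 and Lim2 -2.23 without the filter (adjusted p = 0.9275 each, edgeR), the latter on 7 counts in PBS and 1 in CNP. Of the correlations with Cryaa, that of Lim2 lost its call without the 2 farthest libraries (r = 0.618, adjusted permutation p = 0.0877), with 8 libraries left. Depth limits Lim2, Bfsp1 and the low libraries of Lgsn most.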

Other observations

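Within the crystallins, the library highest in lens transcripts differed from the next in its mix, as the members did. PBS 10 exceeded PBS 14 by 1.88-fold in Crybb2 (95% counting interval 1.82 to 1.94), 2.43-fold in Crygs (2.23 to 2.66) and 5.96-fold in Crygb (5.66 to 6.29), while Cryab differed by 1.25-fold (1.2 to 1.3). Crygb, a gamma crystallin of the inner lens fibres, thus differed by about as much as Lgsn. Crybb2 differed by somewhat more than Cryaa (1.69-fold, 1.64 to 1.74), and their counting intervals did not overlap. Per 1000 Cryaa counts, Crygb ranged from 261 in PBS 14 to 922 in PBS 10, and Crybb2 only from 654 in PBS 6 to 974 in PBS 2. Both proportions were close between the groups, at 613 ± 257 in PBS and 616 ± 158 in CNP for Crygb and 867 ± 132 and 862 ± 113 for Crybb2 (SD, n = 5 each; exact permutation p = 0.968 and 0.944). Without PBS 10 the PBS means of these proportions were 535 for Crygb and 853 for Crybb2. Genes and libraries were chosen after their values were seen.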
